A study of Arabidopsis thaliana with 8 samples.

Results

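The 10 genes described here are the core components of the circadian clock of *Arabidopsis thaliana*, among 25738 genes listed in at least 1 of 8 RNA-seq libraries of floral buds. They were chosen by their locus identifiers and by no rule on their values, though earlier results of these data were known. LHY (AT1G01060) and CCA1 (AT2G46830) peak around dawn, and PRR9 (AT2G46790), PRR7 (AT5G02810) and PRR5 (AT5G24470) follow through the day. TOC1 (AT5G61380), GI (AT1G22770), ELF3 (AT2G25930), ELF4 (AT2G40080) and LUX (AT3G46640) peak towards the evening. The libraries came from stage 9 to 13 buds of long-day grown *elf6*, *jmj13* and *ref6* mutants and of the wild-type Col-0, with 2 libraries per genotype. Each mutant is a T-DNA insertion line in the Col-0 background, and the disrupted genes, ELF6, JMJ13 and REF6, encode enzymes that remove the repressive histone mark H3K27me3. The study reports that the insertion in the *ref6* line spares the part of the gene for the catalytic domain, which is still transcribed. The study proposes that this line probably keeps enzyme function. The methods name 1 insertion line per gene. For *elf6* the allele in the methods differs from the one named with the deposited data, so the allele sequenced is not known. The sources used here give neither the hour at which the buds were taken nor whether the libraries of a genotype came from separate plants, so p-values measure only the spread between these libraries.

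In the plant clock, the MYB-related repressors LHY and CCA1 accumulate at dawn and hold down the evening genes. PRR9, PRR7 and PRR5, pseudo-response regulators that are made in sequence from morning to afternoon, in turn repress LHY and CCA1, and TOC1, another member of that family, continues this repression into the night. ELF3, ELF4 and LUX form the evening complex, a night-time repressor of PRR9, PRR7 and LUX itself, while GI, a large plant-specific protein, stabilises the F-box photoreceptor ZTL and links the clock to flowering. Because each of these transcripts cycles over the day, a set of samples taken at one time catches each gene at its own point of the cycle.

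LHY and CCA1 bind the evening element, AAAATATCT, and the related CCA1-binding site, AAAAATCT. Both strands of the 500 bases before each gene start were searched in the RefSeq sequence of the TAIR10.1 assembly, and a match of one motif cannot be a match of the other, since their letters differ. The evening element was found before 3 of the 10 clock genes, against 4.44% of the corresponding regions of 27443 genes, and the windows that hold it are shown because it is a known site of action of LHY and CCA1. All are read 5′ to 3′ on the strand of the gene, with the element in capitals (AGATATTTT where it lies on the other strand). The PRR5 window lies at chr5:8358715-8358848 (minus strand), that of TOC1 at chr5:24674756-24674875 (plus strand) and that of LUX at chr3:17182922-17183041 (plus strand), which ends at the base before the annotated gene.
PRR5: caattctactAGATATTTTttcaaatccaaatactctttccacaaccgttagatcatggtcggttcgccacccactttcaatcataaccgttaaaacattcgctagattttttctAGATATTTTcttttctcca
TOC1: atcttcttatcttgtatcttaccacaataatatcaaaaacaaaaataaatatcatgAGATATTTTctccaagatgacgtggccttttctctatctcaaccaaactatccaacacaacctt
LUX: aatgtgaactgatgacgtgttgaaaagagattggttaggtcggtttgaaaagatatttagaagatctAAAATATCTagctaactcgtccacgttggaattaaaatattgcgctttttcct

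PRR5 held the element at 2 positions, 292 to 284 and 187 to 179 bases before its start, whereas TOC1 and LUX held it once. The longest RefSeq transcript of PRR5, 1677 nt, is coding throughout, so the bases before its start may include untranslated transcript. The CCA1-binding site was present before LHY, PRR9 and PRR5, against 12.5% of all regions. The G-box, CACGTG, a palindrome bound by many bHLH and bZIP factors, was present before 5 of the 10 genes against 9.35% of all regions, and 4 of these 5 were dawn or day genes. Its surroundings are shown for the dawn pair and for PRR9 and PRR7, the dawn and day genes that hold it. The windows lie at chr1:37904-37993 (minus strand) for LHY, chr2:19245356-19245445 (plus strand) for CCA1, chr2:19232353-19232450 (plus strand) for PRR9 and chr5:642184-642273 (minus strand) for PRR7.
LHY: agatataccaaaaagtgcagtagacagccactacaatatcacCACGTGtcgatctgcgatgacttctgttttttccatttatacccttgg
CCA1: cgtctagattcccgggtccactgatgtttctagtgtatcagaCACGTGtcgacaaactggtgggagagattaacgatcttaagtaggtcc
PRR9: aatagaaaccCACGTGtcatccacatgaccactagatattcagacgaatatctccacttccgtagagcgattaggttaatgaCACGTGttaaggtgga
PRR7: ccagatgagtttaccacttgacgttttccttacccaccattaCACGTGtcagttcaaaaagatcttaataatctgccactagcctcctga

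PRR9 was the gene with 2 G-boxes, 244 to 239 and 172 to 167 bases before its start, and LUX also had one. The short LUX-binding site GATACG was found before ELF3 and ELF4, against 8.76% of all regions. A match to these letters describes the sequence and is not evidence of binding in buds.

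The total of expected counts, the authors' estimates of reads per gene, ranged from 11373306 to 12048319 per library. The count of the mutated gene was 18 and 28 for ELF6 in *elf6*, against 68 and 88 in Col-0, 45 and 45 for JMJ13 in *jmj13*, against 22 and 51 in Col-0, and 130 and 119 for REF6 in *ref6*, against 90 and 103 in Col-0. Only in *elf6* was the mutated gene below both Col-0 libraries, and in *ref6* it was above them. Col-0 replicate 1 and *ref6* replicate 1 stood apart from the other 6 libraries. Their TMM factors were 0.739 and 0.742 against 1.01 to 1.22, and 4 genes of green tissue (RBCS1A, CAB1, CAB2 and CAB3) took 8.0% and 8.82% of their counts against 4.59% to 5.41%. Flower markers were present in every library, with AP3 and PI, the petal and stamen identity genes, summing to between 78.4 and 151 TPM. In *elf6*, 6 touch-response genes (TCH4, TCH3, TCH2, WRKY40, ZAT10 and ZAT12), none of them at 0 in any library, summed to 1518 and 1678 TPM, against 70.5 to 286 TPM in the other 6 libraries. In bulk tissue, fewer cells of a type and less RNA per cell cannot be told apart.

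All 10 clock genes were listed in these buds, and all 10 passed the filter on low counts. Levels between genes were compared as TPM, which is scaled for gene length. Averaged over the 8 libraries, LHY was the most abundant at 10.4 TPM (range 5.61 to 19.6), followed by GI at 9.84 (4.67 to 12.6), CCA1 at 8.18 (3.89 to 13.2), PRR7 at 7.81 (4.87 to 11.0), LUX at 6.17 (2.27 to 8.54), TOC1 at 5.18 (1.50 to 7.85), ELF3 at 3.56 (0.97 to 4.67), PRR5 at 1.99 (1.15 to 3.36), PRR9 at 1.61 (0.487 to 3.89) and ELF4 at 0.88 (0 to 1.75). The ranges of all neighbours in this order overlapped. The median of all 19939 tested genes was 7.60 TPM, so LHY, GI, CCA1 and PRR7 lay above the middle of the distribution and PRR5, PRR9 and ELF4 near its low end, at percentiles 18.6, 15.0 and 7.05. Of the 10 genes, 6 were lowest in Col-0 replicate 1 on the TPM scale, among them 4 of the 5 evening genes, and 4 were highest in *jmj13* replicate 1. TPM does not apply the TMM factor, which was 0.739 in Col-0 replicate 1. After TMM scaling, TOC1, GI, ELF3 and LUX were still lowest in that library. LHY and PRR7 were then lowest in *elf6* replicate 2 (17.3 and 16.3 TMM-scaled CPM, against 20.1 and 18.3 in Col-0 replicate 1). The share of all tested genes lowest in Col-0 replicate 1 was not computed.

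**Figure D1:**
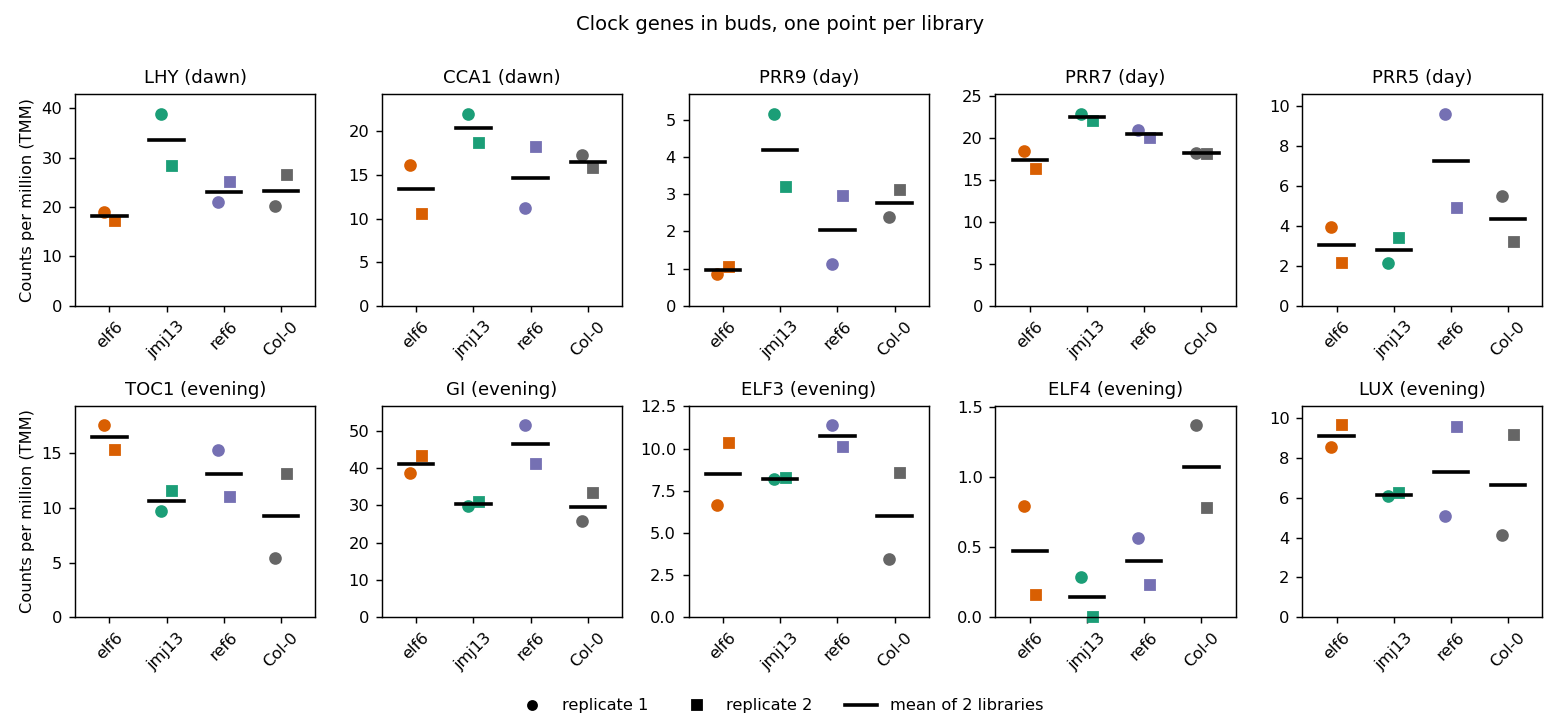
TMM-scaled CPM (y axis, linear, from 0) of each clock gene in *elf6*, *jmj13*, *ref6* and Col-0 (x axis), with a circle for replicate 1, a square for replicate 2 and a bar for their mean. LHY, CCA1, PRR9 and PRR7 were highest in *jmj13*, whereas TOC1 was highest in *elf6* and GI was lowest in Col-0 on average, and Col-0 replicate 1 was the lowest library for TOC1, GI, ELF3 and LUX.

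Counts were compared to ask whether mutation of a demethylase gene was accompanied by a change of the clock genes. They were scaled by TMM, given below as CPM (counts scaled to a common library total), and tested over all 8 libraries with edgeR's quasi-likelihood test. A gene was called at a Benjamini-Hochberg adjusted p-value under 0.05, taken over the 19939 tested genes, and a change of at least 2-fold. No clock gene was called in *elf6* against Col-0 (0.12% of all tested genes called), in *jmj13* against Col-0 (0%), in *ref6* against Col-0 (0.00502%) or in *elf6* against *jmj13* (0.772%). Likewise none of the 10 differed among the 4 genotypes when these were tested together (0.567% of all tested genes called), where LHY and PRR9 had an unadjusted p-value under 0.05 (12% of all tested genes). At an unadjusted p-value under 0.05 there was 1 clock gene in each comparison with Col-0 and 2 in *elf6* against *jmj13*, where the shares of all tested genes were 12.4%, 11.2% and 4.67% for *elf6*, *jmj13* and *ref6* against Col-0 and 8.78% for *elf6* against *jmj13*. DESeq2 called 0 of the 10 in each comparison with Col-0, where it called 2.19% of all tested genes in *elf6*, 1.33% in *jmj13* and 0.166% in *ref6*, and 1, PRR9, in *elf6* against *jmj13* (2.18% of all tested genes). The values below therefore describe these libraries, and the differences from Col-0 are not shown to exceed the spread between replicates.

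LHY, one of the dawn repressors (chromosome 1, 33365 to 37871, minus strand, 10 exons), had 18.95 and 17.3 TMM-scaled CPM in *elf6*, 38.9 and 28.2 in *jmj13*, 21.0 and 25.0 in *ref6*, and 20.1 and 26.4 in Col-0. Both *jmj13* libraries were above, and both *elf6* libraries below, all others. Between *elf6* and *jmj13* the log2 fold change of LHY was -0.89 (SE 0.26, unadjusted p = 0.00659, adjusted p = 0.231 by edgeR). The adjusted p-value of LHY was 0.0211 with only the 4 libraries of these mutants in the edgeR fit and 0.0199 without both libraries that stood apart, where the change stayed under 2-fold (-0.89 in both), and over all alternatives it lay between 0.0199 and 1. Against Col-0 the log2 fold change was -0.36 in *elf6* (SE 0.26, adjusted p = 0.603, edgeR), 0.53 in *jmj13* (SE 0.26, adjusted p = 0.476) and -0.02 in *ref6* (SE 0.26, adjusted p = 0.999).
Its partner CCA1 (chromosome 2, 19245591 to 19248915, plus strand, 8 exons) had 16.2 and 10.5 TMM-scaled CPM in *elf6*, 22.0 and 18.6 in *jmj13*, 11.2 and 18.2 in *ref6*, and 17.3 and 15.8 in Col-0. The *jmj13* libraries were again the highest, and the *elf6* libraries overlapped those of *ref6* and Col-0. Between *elf6* and *jmj13* CCA1 had a log2 fold change of -0.61 (SE 0.30, adjusted p = 0.663, edgeR), which was -0.95 without *elf6* replicate 1 and -0.33 without *elf6* replicate 2. The transcripts of LHY and CCA1 are 76.4% identical over 216 nt, and their counts were whole numbers in all libraries except that of LHY in *ref6* replicate 1.

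Of the day genes, PRR9 (chromosome 2, 19232607 to 19235179, plus strand, 6 exons) had the largest log2 fold change between *elf6* and *jmj13*. It had 11.4 and 13.1 expected counts in *elf6*, 71.9 and 41.8 in *jmj13*, 9.80 and 37.6 in *ref6*, and 21.2 and 35.9 in Col-0. After TMM scaling these were 0.87 and 1.04 CPM in *elf6*, 5.17 and 3.18 in *jmj13*, 1.13 and 2.95 in *ref6*, and 2.40 and 3.11 in Col-0. The *elf6* libraries were the lowest and the *jmj13* libraries the highest of the 8, and the *ref6* libraries spanned most of the range between them. PRR9 had a log2 fold change of -2.12 in *elf6* against *jmj13* (SE 0.54, unadjusted p = 0.00263, adjusted p = 0.137 by edgeR) and -1.53 in *elf6* against Col-0 (SE 0.56, unadjusted p = 0.0197, adjusted p = 0.312). In *jmj13* against Col-0 it was 0.59 (SE 0.50, adjusted p = 0.630, edgeR), with 0.20 without *jmj13* replicate 1 and 0.90 without *jmj13* replicate 2, and in *ref6* -0.40 (SE 0.52, adjusted p = 0.999). PRR9 was among the predicted ELF6 targets of the study. These were first limited to genes with more H3K27me3 in buds of the triple demethylase mutant, from separate ChIP-seq data. From them the study took genes lower in *elf6* in the present libraries, and then those that differed between *elf6* and *jmj13*. Neither the difference of PRR9 from Col-0 nor that from *jmj13* is therefore independent evidence. The difference between *elf6* and *jmj13* passed the threshold with DESeq2 (adjusted p = 0.0327, 2.18% of all tested genes called), without the filter on low counts (0.0291, 1.75% called), with only the 4 libraries of these mutants in the fit (0.0134, 3.65% called) and without both libraries that stood apart (0.0111, 3.62% called, edgeR), and over all alternatives its adjusted p-value lay between 0.0111 and 1.

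The expected counts of PRR9 were not whole in any of the 8 libraries, as happens where reads are shared between genes. Its near-identical copy is AT2G46670. This locus, annotated as a CCT motif family protein with 2 exons (chromosome 2, 19164357 to 19165233, minus strand), lies 67373 bp from PRR9. In RefSeq, 98.1% of its 784 nt transcript matches PRR9, in a block of 440 nt with 3 mismatches and a block of 333 nt with none, which together take up 37.8% of the PRR9 transcript. The stretch that holds all 3 mismatches is shown with them in capitals, since within the matching blocks the transcripts can be told apart only at these bases. It covers positions 1206 to 1294 of the PRR9 transcript and 84 to 172 of the AT2G46670 transcript.
PRR9: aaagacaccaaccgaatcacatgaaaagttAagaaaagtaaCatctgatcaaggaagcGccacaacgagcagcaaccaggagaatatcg
AT2G46670: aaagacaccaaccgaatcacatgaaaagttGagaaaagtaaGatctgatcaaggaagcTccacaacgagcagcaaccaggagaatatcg

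The counts assigned to AT2G46670 were 39.6 and 7.94 in *elf6*, 34.2 and 37.3 in *jmj13*, 11.2 and 15.4 in *ref6*, and 7.77 and 8.08 in Col-0. Added to those of PRR9 they gave whole numbers in every library, 51 and 21 in *elf6*, 106 and 79 in *jmj13*, 21 and 53 in *ref6*, and 29 and 44 in Col-0. The share of this sum given to AT2G46670 was 77.6% and 37.8% in *elf6*, 32.2% and 47.2% in *jmj13*, 53.3% and 29.1% in *ref6*, and 26.8% and 18.4% in Col-0. In *elf6* replicate 1 most of the sum thus went to the copy. The summed counts, an alternative chosen after seeing the data, were 4.03 and 1.68 CPM after TMM scaling in *elf6*, 7.60 and 5.99 in *jmj13*, 2.37 and 4.11 in *ref6*, and 3.32 and 3.80 in Col-0. On the sum, both *jmj13* libraries remained above the other 6, and the *elf6* libraries spanned those of Col-0. The log2 fold change of the sum was -0.32 in *elf6* against Col-0 (SE 0.47, adjusted p = 0.812, edgeR), where that of PRR9 alone was -1.53. In *elf6* against *jmj13* it was -1.25 (SE 0.45, adjusted p = 0.372) and in *jmj13* against Col-0 0.93 (SE 0.45, adjusted p = 0.462).

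**Figure D2:**
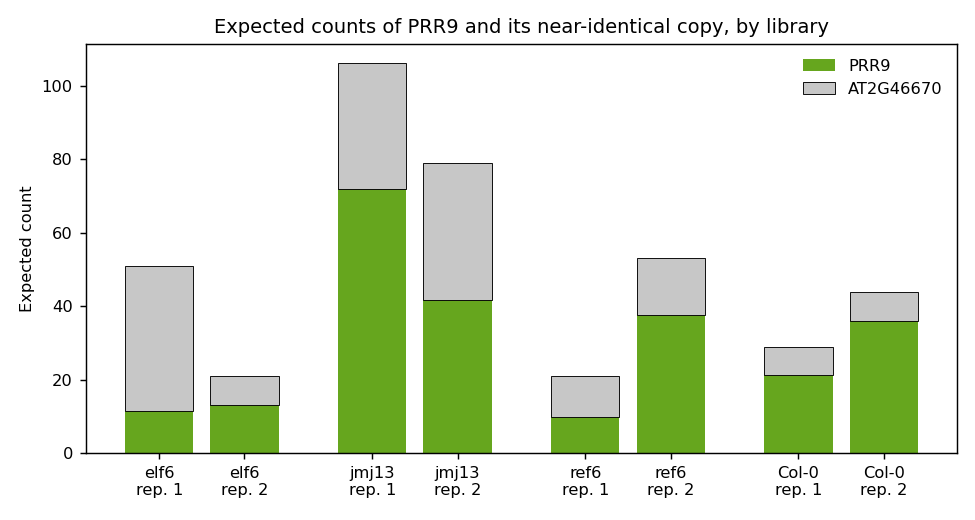
Expected counts (y axis, from 0) assigned to PRR9 (green) and, stacked on it, to its near-identical copy AT2G46670 (grey), in each library (x axis). In *elf6* replicate 1, 39.6 of the 51 counts stand with the copy, whereas in Col-0 replicate 2 it has 8.08 of 44.

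PRR7, which acts with PRR9 in the repression of LHY and CCA1 (chromosome 5, 637681 to 642030, minus strand, 8 exons), had the smallest ratio of highest to lowest TPM among the clock genes, 2.26. Its TMM-scaled CPM were 18.5 and 16.3 in *elf6*, 22.97 and 22.1 in *jmj13*, 21.0 and 20.1 in *ref6*, and 18.3 and 18.1 in Col-0. Replicates differed by no more than 1.13-fold in any genotype, and the *jmj13* libraries were the highest. PRR7 had a log2 fold change of -0.37 in *elf6* against *jmj13* (SE 0.22, adjusted p = 0.777, edgeR), 0.31 in *jmj13* against Col-0 (SE 0.22, adjusted p = 0.580) and -0.07 in *elf6* against Col-0 (SE 0.22, adjusted p = 0.929).
PRR5, the afternoon member (chromosome 5, 8356204 to 8358546, minus strand, 6 exons), did not follow the other day genes. It had 3.95 and 2.16 TMM-scaled CPM in *elf6*, 2.15 and 3.41 in *jmj13*, 9.61 and 4.89 in *ref6*, and 5.49 and 3.19 in Col-0. Its highest library was *ref6* replicate 1, replicates differed by between 1.58-fold and 1.97-fold in each genotype, and *elf6* and *jmj13* overlapped. In *ref6* against Col-0, PRR5 had a log2 fold change of 0.74 (SE 0.47, adjusted p = 0.999, edgeR), which was 0.18 without *ref6* replicate 1 and 1.17 without Col-0 replicate 1.

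Among the evening genes, TOC1 (chromosome 5, 24674963 to 24678550, plus strand, 6 exons) had 17.6 and 15.34 TMM-scaled CPM in *elf6*, 9.76 and 11.5 in *jmj13*, 15.26 and 11.0 in *ref6*, and 5.38 and 13.1 in Col-0. The *elf6* libraries were the highest of the 8, and the Col-0 libraries differed from each other by 2.44-fold. In *elf6*, TOC1 had a log2 fold change of 0.82 against Col-0 (SE 0.37, unadjusted p = 0.0528, adjusted p = 0.408 by edgeR) and 0.63 against *jmj13* (SE 0.37, adjusted p = 0.767). Its difference from Col-0 depended on which Col-0 library was kept, at 0.33 without Col-0 replicate 1 and 1.60 without Col-0 replicate 2.
GI (chromosome 1, 8061751 to 8067790, plus strand, 14 exons) had 38.7 and 43.4 TMM-scaled CPM in *elf6*, 29.7 and 30.9 in *jmj13*, 51.7 and 41.2 in *ref6*, and 25.7 and 33.3 in Col-0. Both *elf6* and both *ref6* libraries lay above all those of *jmj13* and Col-0. GI had a log2 fold change of 0.65 in *ref6* against Col-0 (SE 0.25, unadjusted p = 0.0244, adjusted p = 0.999 by edgeR), 0.47 in *elf6* against Col-0 (SE 0.25, adjusted p = 0.470) and 0.44 in *elf6* against *jmj13* (SE 0.25, adjusted p = 0.743). GI was the clock gene with the most reads, 3454 counts over the 8 libraries.

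The genes of the evening complex had fewer reads than GI and TOC1. ELF3, its scaffold (chromosome 2, 11058944 to 11063324, plus strand, 4 exons), overlaps AT2G08135 and AT2G25940 on the minus strand, and whether reads were counted by strand is not given in the sources used here. It had 6.63 and 10.3 TMM-scaled CPM in *elf6*, 8.18 and 8.26 in *jmj13*, 11.4 and 10.1 in *ref6*, and 3.43 and 8.54 in Col-0. Col-0 replicate 1 was the lowest library. ELF3 had a log2 fold change against Col-0 of 0.48 in *elf6* (SE 0.40, adjusted p = 0.658, edgeR), 0.44 in *jmj13* (SE 0.40, adjusted p = 0.656) and 0.82 in *ref6* (SE 0.40, adjusted p = 0.999). Without Col-0 replicate 1 these were -0.01, -0.06 and 0.33.
LUX, the DNA-binding subunit (chromosome 3, 17183042 to 17186959, plus strand, 2 exons, with AT3G46650 overlapping on the minus strand), had 8.53 and 9.67 TMM-scaled CPM in *elf6*, 6.10 and 6.21 in *jmj13*, 5.09 and 9.55 in *ref6*, and 4.12 and 9.14 in Col-0. The *elf6* libraries were above those of *jmj13*, and the *ref6* and Col-0 libraries differed between replicates by 1.88-fold and 2.22-fold. LUX had a log2 fold change of 0.56 in *elf6* against *jmj13* (SE 0.40, adjusted p = 0.878, edgeR) and 0.44 in *elf6* against Col-0 (SE 0.41, adjusted p = 0.691), the second of which was -0.01 without Col-0 replicate 1. LUX counts were whole in every library, although its transcript is 83.7% identical to AT3G00810 over 571 nt.
ELF4, a small protein that joins them (chromosome 2, 16734294 to 16734953, minus strand, 1 exon), was close to the limit of detection, with 10 and 2 counts in *elf6*, 4 and 0 in *jmj13*, 5 and 3 in *ref6*, and 12 and 9 in Col-0. The *jmj13* and *ref6* libraries were below those of Col-0, and *elf6* overlapped Col-0. A count of 0 allows up to 3 counts, or 0.264 counts per M before TMM scaling in *jmj13* replicate 2. The log2 fold change of ELF4 in *jmj13* was -2.77 (SE 1.15, unadjusted p = 0.0360, adjusted p = 0.429 by edgeR), and over the alternatives it ranged from -6.62 to -0.98, so that its size is not fixed at this depth.

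**Figure D3:**
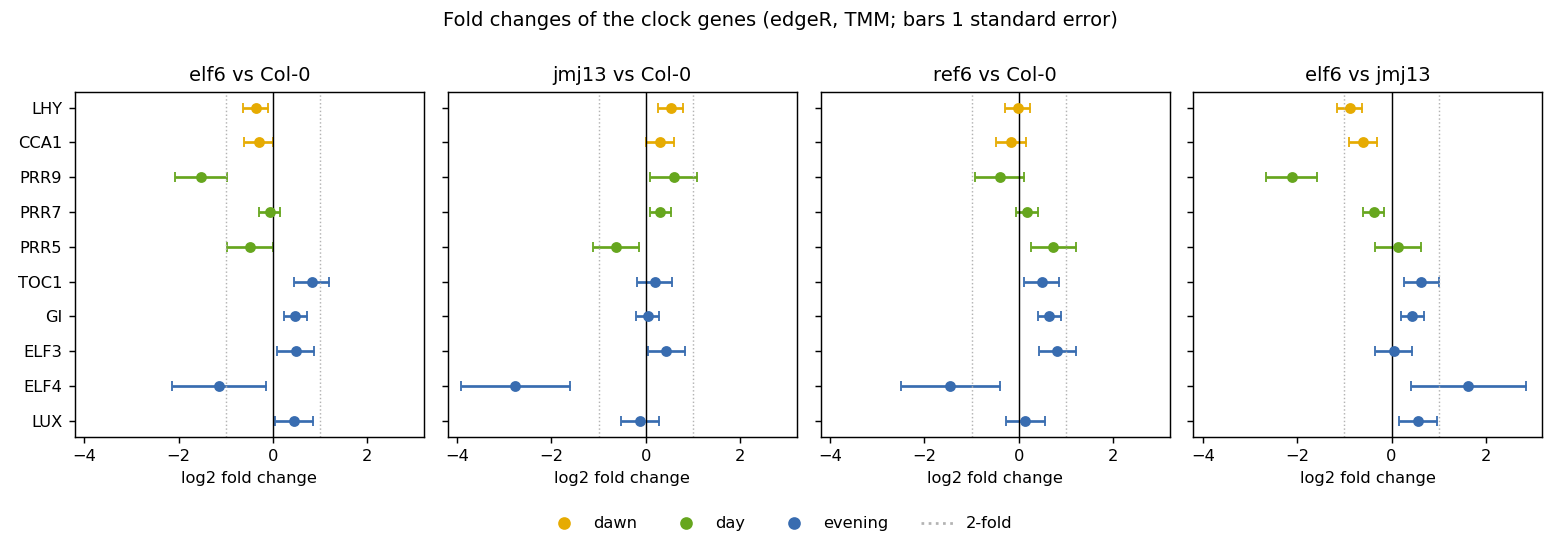
Log2 fold changes (x axis) of the 10 clock genes (y axis) with 1 standard error, in *elf6*, *jmj13* and *ref6* against Col-0 and in *elf6* against *jmj13*, from edgeR after TMM scaling. Colours mark dawn, day and evening genes and dotted lines a 2-fold change, and in the panel of *elf6* against *jmj13* both dawn genes, PRR9 and PRR7 stand left of 0 and all 5 evening genes right of it.

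The libraries of *elf6* and *jmj13* include neither Col-0 nor the 2 libraries that stood apart, but the estimate of the spread behind each SE and p-value was shared by all 8. With only these 4 libraries in the fit 3.65% of all tested genes were called between *elf6* and *jmj13*, and 3.62% without both libraries that stood apart, against 0.772% with all 8. In it both dawn genes had a negative log2 fold change (median -0.75), as had PRR9 and PRR7 of the day genes, while all 5 evening genes had a positive log2 fold change (median 0.56). The *elf6* libraries did not overlap those of *jmj13* in 7 of the 10 genes, being lower for LHY, CCA1, PRR9 and PRR7 and higher for TOC1, GI and LUX, where 48.1% of all tested genes did not overlap, 24.6% being lower and 23.5% higher. The median of all tested genes was -0.03, and none of the 7 passed the test over all genes. For ELF3, whose log2 fold change was 0.04 (SE 0.39), the sign was negative with scaling by library size or the upper quartile and on FPKM. Against Col-0, the libraries did not overlap in 4 genes in *elf6* (44.7% of all tested genes), in 5 in *jmj13* (46.2%) and in 4 in *ref6* (26.1%). These comparisons share the Col-0 libraries.

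The balance of dawn and day against evening genes was computed within each library, where the factor that scales the library has little weight. It is the mean log2(TPM + 1) of LHY, CCA1, PRR9, PRR7 and PRR5 minus that of TOC1, GI, ELF3, ELF4 and LUX, and was given no test because it is a score over chosen genes. The balance was -0.25 and -0.44 in *elf6*, 0.67 and 0.59 in *jmj13*, -0.04 and 0.23 in *ref6*, and 0.51 and 0.01 in Col-0. The evening genes outweighed the others in both *elf6* libraries, and the *jmj13* libraries had the highest balance of the 8. As means this was -0.35 ± 0.13 in *elf6*, 0.63 ± 0.06 in *jmj13*, 0.09 ± 0.19 in *ref6* and 0.26 ± 0.35 in Col-0 (SD, n = 2 each). The 2 Col-0 libraries differed by almost as much as the means of *elf6* and Col-0, and without Col-0 replicate 2 the mean of *jmj13* exceeded that of Col-0 by 0.11, against 0.62 without Col-0 replicate 1.
The ratio of LHY to TOC1 counts, in which neither scaling nor the PRR9 copy plays a part, gave the same order of genotype means. The single libraries stood in another order, and both genes are also part of the balance. The ratio was 1.08 and 1.12 in *elf6*, 3.99 and 2.45 in *jmj13*, 1.38 and 2.27 in *ref6*, and 3.74 and 2.01 in Col-0. Both *elf6* libraries were below the other 6, and the highest values were those of *jmj13* replicate 1 and Col-0 replicate 1. The touch-response genes, at 1518 and 1678 TPM in *elf6* against 164 and 272 TPM in *jmj13*, were higher in the mutant with the lower balance. In Col-0 they summed to 286 and 208 TPM, at balances of 0.51 and 0.01. In *ref6* they summed to 70.5 and 274 TPM, at balances of -0.04 and 0.23. The 6 cold-response genes (CBF1, CBF2, CBF3, COR15A, KIN1 and COR47) summed to 1456 and 1612 TPM in *elf6* against 974 and 909 TPM in *jmj13*. Most of that sum was KIN1, with means of 1107 TPM in *elf6* and 659 in *jmj13*, and CBF2, COR15A and COR47 were also higher in *elf6*. CBF1 and CBF3 went the other way, with means of 0.551 and 3.69 TPM in *elf6* against 4.93 and 7.12 in *jmj13*. The part of the touch and cold genes in the result was not tested.

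**Figure D4:**
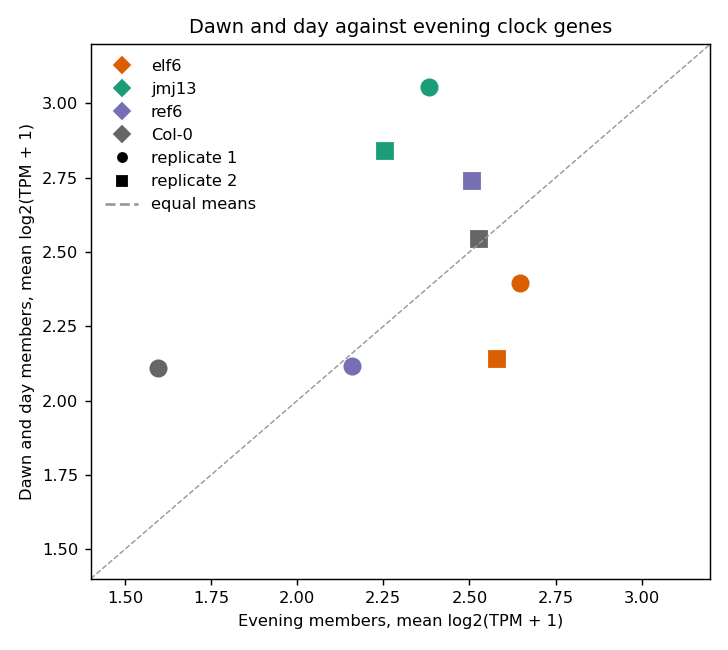
Mean log2(TPM + 1) of the 5 dawn and day genes (y axis) against that of the 5 evening genes (x axis), 1 point per library coloured by genotype, with replicate 1 as a circle and replicate 2 as a square. Both *elf6* libraries lie below the dashed line of equal means, with *ref6* replicate 1 just below it, and both *jmj13* libraries lie well above it. Col-0 replicate 1 also lies well above the line and far to the left, with evening genes at 1.60 against 2.16 to 2.65 in the other 7 libraries.

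Across the 8 libraries, LHY varied most closely with PRR9 (Pearson r = 0.89 of log2 TMM-scaled CPM) and with PRR7 (r = 0.79), and CCA1 with PRR9 (r = 0.79). TOC1 and GI (r = 0.77) and GI and ELF3 (r = 0.77) also varied together, while CCA1 and GI ran in opposite directions (r = -0.73). These values describe 8 libraries that share genotypes and scaling factors. Those of PRR9, here and below, use the counts assigned to PRR9 alone. Its copy AT2G46670 took from 18.4% to 77.6% of their sum by library, and correlations on the sum were not computed. Among 10289 tested genes with a mean of at least 10 CPM, those most like LHY were AT1G10640 (r = 0.97), MCM5 (AT2G07690, r = 0.96), a subunit of the replicative helicase, and AT3G13222 (r = 0.95). For PRR9 they were AT5G11330, NEK3 (AT5G28290) and AT4G27240 (r = 0.95, 0.95 and 0.94). For GI they were QWRF2 (AT1G49890, r = 0.96), TPS11 (AT2G18700, r = 0.95) and AT3G07540 (r = 0.95). None of the 9 was on the wider list of clock genes.

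That wider list holds 43 genes that act around the core, and 39 of them were tested. It includes the REVEILLE activators, the LNK coactivators, relatives of ELF4 and LUX, the ZTL family of blue-light F-box proteins and clock outputs. None was called against Col-0. At an unadjusted p-value under 0.05 there were 7 in *elf6*, 3 in *jmj13* and 2 in *ref6* against Col-0, and 8 in *elf6* against *jmj13*, beside 12.4%, 11.2%, 4.67% and 8.78% of all tested genes in the same order. The median log2 fold change of the list was -0.17, -0.03 and -0.04 in *elf6*, *jmj13* and *ref6* against Col-0, beside 0.03, 0.04 and -0.02 over all tested genes. In *elf6* against *jmj13* 1 of the 39 was called, higher in *elf6* (0.727% of all tested genes were called higher), and the median was -0.23 beside -0.03 over all tested genes.
The called gene was AT1G69570, which RefSeq annotates as a Dof-type zinc finger protein. It had 14.7 and 14.0 TMM-scaled CPM in *elf6*, 4.31 and 4.02 in *jmj13*, 4.18 and 6.99 in *ref6*, and 6.63 and 6.13 in Col-0. Both *elf6* libraries were above every other library. The log2 fold change of AT1G69570 was 1.78 in *elf6* against *jmj13* (SE 0.31, adjusted p = 0.0317, edgeR) and 1.17 against Col-0 (SE 0.30, adjusted p = 0.173, and 0.0449 without both libraries that stood apart). The call between *elf6* and *jmj13* was lost without any 1 of the 4 libraries of these mutants (adjusted p = 0.190 and 0.261 without *elf6* replicate 1 or 2, 0.468 and 0.331 without *jmj13* replicate 1 or 2, edgeR), at log2 fold changes of 1.73 to 1.83, and no gene at all was called in that comparison without *elf6* replicate 2 or without *jmj13* replicate 1. Over the 4 genotypes together the adjusted p-value of AT1G69570 was 0.0676 (edgeR). The antisense gene AT1G69572 overlaps it.
In *elf6* against Col-0, the 2 genes of the list with the smallest p-values were CDF3, a Dof factor that represses flowering genes, and PIF5, a bHLH factor of light signalling that the clock gates. CDF3 had 6.40 and 7.59 TMM-scaled CPM in *elf6*, against 14.4 and 18.0 in Col-0 (log2 fold change -1.22, SE 0.26, adjusted p = 0.113, edgeR). PIF5 had 37.2 and 39.3 in *elf6*, against 17.96 and 20.3 in Col-0 (1.00, SE 0.23, adjusted p = 0.134). For neither gene did the *elf6* and Col-0 libraries overlap, which held for 44.7% of all tested genes. Both genes were picked by their p-values in this comparison, so this adds no separate evidence.
In *jmj13* against Col-0 they were CHE (AT5G08330), a TCP factor that represses CCA1, and LKP2, a relative of ZTL that AT2G18917 overlaps on the other strand. CHE had 35.8 and 44.9 TMM-scaled CPM in *jmj13*, against 103 and 54.5 in Col-0 (log2 fold change -0.97, SE 0.34, adjusted p = 0.407, edgeR), and it reached 131 and 137 in *elf6*, 1.73 above *jmj13* on the log2 scale (SE 0.34, adjusted p = 0.0515). LKP2 had 14.3 and 18.7 in *jmj13*, against 9.26 and 11.8 in Col-0 (0.64, SE 0.26, adjusted p = 0.426). In *ref6* against Col-0 they were EFL3 (AT2G06255), a relative of ELF4, with 6.44 and 6.52 in *ref6* against 12.8 and 9.14 in Col-0 (-0.75, SE 0.28, adjusted p = 0.999), and TIC, a regulator of clock timing, with 200.4 and 157 in *ref6* against 93.8 and 137 in Col-0 (0.63, SE 0.28, adjusted p = 0.999).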

How the data were processed

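For each library the authors deposited expected counts per gene, made with Bowtie2 and RSEM on TAIR10 per the labels, and FPKM, the expected count scaled by the authors for gene length and library total. Genes not listed in a library were taken as 0. The aligner settings, annotation and use of strand are not given in the sources used here. Genotype and replicate came from the sample titles and characteristics.

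Expected counts were rounded, filtered with filterByExpr by genotype (19939 of 25738 genes kept), scaled by TMM and fitted with edgeR 4.0.16 (R 4.3.3) with a factor for genotype over all 8 libraries. NOISeq, named in the methods, was not used. TPM was FPKM rescaled to a common total. Totals of 11373306 to 12048319 counts put 3 counts at 0.249 to 0.264 counts per M, which covers counting error only. Alternatives used DESeq2 1.42.0, limma 3.58.1, other scaling and filters, the replicate number as a block, and omission of libraries.

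Coordinates and sequences came from RefSeq TAIR10.1, in which all 10 clock genes matched by locus. Regions of 500 bases before gene starts were searched for motifs. The clock genes and lists were chosen with earlier results of these data known. The genes named are these 10, any gene of the wider list called in a comparison or else the 2 with the smallest p, the 3 genes most like LHY, PRR9 and GI, and the mutated genes.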

Additional observations from a re-analysis of the deposited data

Results flagged for a closer look

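AT1G69570, from the wider list of clock genes, differed between *elf6* and *jmj13* by a log2 fold change of 1.78 (adjusted p = 0.0317, edgeR), the test of the difference between these mutants itself. Over its alternatives the log2 fold change ranged from 1.38 to 1.83 and the adjusted p-value from 0.000445 to 0.468. The call was lost without any 1 of the 4 *elf6* and *jmj13* libraries, with library size only (adjusted p = 0.222, edgeR), and on log2(FPKM + 1) and log2(FPKM + 0.1) (0.159 and 0.282, limma), and over the 4 genotypes together the gene was not called (adjusted p = 0.0676, edgeR).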

How the results depend on the processing

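Under the alternatives, no clock gene was called against Col-0 or over the 4 genotypes. In *elf6* against *jmj13* the count became 1, PRR9, with DESeq2's test, with no filter on low counts, with only the 4 libraries compared and without both libraries that stood apart, settings that called 2.18%, 1.75%, 3.65% and 3.62% of all tested genes, against 0.772%. It was 0 with PRR9 summed with AT2G46670 and with each library left out in turn. ELF4 and PRR5 were outside the genes with a mean of at least 50 counts, as was PRR9. With the replicate number as a block, a pairing that rests on the number alone (correlation of deviations 0.02 to 0.36 between genotypes), no clock gene was called. The block moved the count over all genes from 24 to 290 in *elf6* and from 1 to 2 in *ref6* against Col-0, left it at 0 in *jmj13*, and moved it from 154 to 287 in *elf6* against *jmj13*. The PRR9 value in *elf6* against *jmj13* with the block was -2.15 (adjusted p = 0.109, edgeR).

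The balance of dawn and day against evening genes kept its sign except in *ref6* against Col-0. Its difference was 0.65 in *jmj13* against Col-0 and -1.41 in *elf6* against *jmj13* on log2(TPM + 0.1), 0.68 and -1.37 with LHY, CCA1 and PRR9 against TOC1, GI, ELF4 and LUX, and -1.26 in *elf6* against *jmj13* on log2 CPM. With single libraries left out it ranged from -0.86 to -0.36 in *elf6*, from 0.11 to 0.62 in *jmj13* and from -0.42 to 0.081 in *ref6* against Col-0, and from -1.07 to -0.88 in *elf6* against *jmj13*. With library size only, the median over all genes shifted to a log2 fold change of 0.34 in *elf6*, 0.48 in *jmj13* and 0.04 in *ref6* against Col-0.

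Log2 fold changes that changed sign were all uncalled. With library size only they were 0.024 for CCA1 and 0.25 for PRR7 in *elf6*, 0.25 for LUX in *jmj13* and 0.027 for LHY in *ref6* against Col-0, and -0.085 for ELF3 in *elf6* against *jmj13*, where the upper quartile gave -0.024. GI in *jmj13* against Col-0 was -0.0003 with DESeq2's size factors and -0.0008 with its test. On log2(FPKM + 1) by limma, CCA1 was 0.0018 and PRR7 0.23 in *elf6*, LUX 0.35 in *jmj13* and LHY 0.031 in *ref6* against Col-0, and PRR5 was -0.0041 and ELF3 -0.084 in *elf6* against *jmj13*. On log2(FPKM + 0.1), PRR7 was 0.26, LUX 0.45 and LHY 0.036 in the same comparisons, and PRR5 -0.019 and ELF3 -0.11. Without both libraries that stood apart, ELF3 was -0.017 and LUX -0.012 in *elf6*, TOC1 -0.31, GI -0.14 and ELF3 -0.061 in *jmj13*, and CCA1 0.21 and TOC1 -0.25 in *ref6* against Col-0. With single libraries left out, the ranges that crossed 0 were -0.16 to 0.021 for PRR7, -0.01 to 1.29 for ELF3 and -0.0059 to 1.13 for LUX in *elf6*. In *jmj13* they were -0.31 to 0.96 for TOC1, -0.14 to 0.21 for GI, -0.063 to 1.24 for ELF3 and -0.58 to 0.56 for LUX. In *ref6* they were -0.19 to 0.18 for LHY, -0.56 to 0.14 for CCA1, -1.28 to 0.091 for PRR9 and -0.40 to 0.83 for LUX. In *elf6* against *jmj13* they were -0.36 to 0.51 for PRR5 and -0.31 to 0.33 for ELF3. The cause was not tested.

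With 2 libraries per genotype, a total of 45 counts for ELF4 and 243 for PRR9 limits what these data can show.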
